A study of Mus musculus with 16 samples.

Results

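The genes Gdpd2, Atp6v0a4, Lhfpl3, Pla1a, Xrra1, Tmem82 and Mslnl were measured in whole lungs of newborn mice after ozone. They were singled out because their signal was higher in ozone lungs than in air lungs 6 h after exposure, and 7 of the 21640 genes tested belong to the set. Their probes were found by gene name, current or older, among the 41174 probes that are not controls, which gave 8 probes, 2 of them for Atp6v0a4. All 7 genes passed the filter on dim signal, which asked for 4 or more of the 16 arrays to be well above background. The 6 h values chose the genes, and the name early-only was given with the 24 h values known. Changes and counts of calls are therefore given below as a description, and no p-value is printed for a 6 h change.

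Inbred BALB/c pups aged 3 days breathed ozone at 1000 ppb for 3 h, and their littermates breathed filtered air for 3 h. The 4 groups were ozone lungs taken 6 h after exposure, air lungs of 6 h, ozone lungs taken 24 h after exposure, and air lungs of 24 h, each with 4 mice and 1 array per mouse. Pups were cross-fostered so that each stayed with a dam, and the 6 h and 24 h experiments were separate, each with its own air littermates. The labels do not give the sex of the pups. Xist, which is transcribed from the inactive X chromosome of females, lay below the array's 75th percentile in 2 of 4 ozone and 1 of 4 air lungs at 6 h, and in 3 of 4 ozone and 1 of 4 air lungs at 24 h. RNA came from whole lung, in which fewer cells of a type and less RNA per cell cannot be told apart.

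Ozone is an oxidant gas that reacts with lipids and proteins of the fluid and membranes lining the airways. The 7 genes do not form 1 pathway. Gdpd2 and Pla1a encode enzymes of phospholipid breakdown, Atp6v0a4 encodes a subunit of a proton pump, Lhfpl3, Tmem82 and Mslnl encode membrane proteins, and Xrra1 is named after an association with X-ray resistance in cultured tumour cells. The vacuolar-type proton pump, or V-ATPase, moves protons across membranes with energy from ATP, and its a4 subunit is known from acid-secreting cells of kidney and inner ear.

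The probe of Atp6v0a4 is shown because that gene had the largest 6 h change, and the probe of Xrra1 because it alone was not well above background on every array. Each has at least 1 reading frame without a stop codon. Each is written 5′ to 3′ in the sense of the transcript, on mouse build mm9, with positions from the array design. The Atp6v0a4 probe lies at chr6:38038024-38038671 on the minus strand and spans 648 genomic bases, more than its own length of 60 bases, so its target is split over separate genomic blocks. The Xrra1 probe lies at chr7:107065534-107065593 on the plus strand and was named through the symbol in the array file.
Atp6v0a4 probe: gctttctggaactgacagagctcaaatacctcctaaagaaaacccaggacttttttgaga
Xrra1 probe: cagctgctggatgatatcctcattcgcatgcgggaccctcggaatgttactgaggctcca
The second Atp6v0a4 probe lies elsewhere in the gene, at chr6:37998756-37998815. The probes of Gdpd2 (chrX:97933476-97933622), Lhfpl3 (chr5:22781005-22781064), Pla1a (chr16:38396287-38396346), Tmem82 (chr4:141170279-141170338) and Mslnl (chr17:25885141-25885200) are named only.

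The 250 bases before the transcription start were searched for short motifs in the RefSeq promoter table (GRCm38.p6), which held 6 starts for 5 of the 7 genes. The genes share a 6 h rise because they were picked by it. The windows before the first Gdpd2 start (chrX:100729597-100729846, plus strand) and before the Atp6v0a4 start (chr6:38124587-38124836, minus strand) are shown because these genes had the most negative differences between the times. Capitals mark a match to TATAAA, and windows were read on both strands.
Gdpd2 upstream window: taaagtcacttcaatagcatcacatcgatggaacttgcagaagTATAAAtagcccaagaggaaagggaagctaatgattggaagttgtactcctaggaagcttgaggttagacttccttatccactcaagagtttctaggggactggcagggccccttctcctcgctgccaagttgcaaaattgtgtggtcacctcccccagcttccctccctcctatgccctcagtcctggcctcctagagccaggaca
Atp6v0a4 upstream window: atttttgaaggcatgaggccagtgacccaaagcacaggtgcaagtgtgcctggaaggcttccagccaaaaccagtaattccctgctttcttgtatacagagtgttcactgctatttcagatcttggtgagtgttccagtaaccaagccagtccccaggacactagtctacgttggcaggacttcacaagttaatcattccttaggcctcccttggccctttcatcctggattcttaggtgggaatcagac
The match in the Gdpd2 window begins at -207 from the start, and 12.4% of all 32851 promoter windows hold these letters. The window before the second Gdpd2 start holds 1 match to TGACNNNGC, the core letters of the antioxidant response element, which 10.2% of all windows hold. The AP-1 letters TGANTCA, the NF-kB motif, the hypoxia letters ACGTG and the heat shock letters GAANNTTC had no match in any of the 6 windows, and 6.75%, 17.6%, 16.6% and 6.69% of all windows hold them. These matches are descriptions of letters in a window.

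Arrays differed in sensitivity. The array 75th percentiles of processed signal ran from 574 to 946, and the share of spots well above background from 65.0% to 83.9%. The highest share was that of ozone replicate 3 of 6 h, with up to 72.4% on any other 6 h array and 74.6% to 81.0% at 24 h. Genes were split by mean signal into 4 equal bins. In the lowest bin ozone replicate 3 lay a median of 1.21 above the other ozone arrays of 6 h on the log2 scale, and in the next bin 0.24 above. Atp6v0a4, Lhfpl3, Xrra1 and Mslnl belong to the lowest bin, and Gdpd2, Pla1a and Tmem82 to the next, so each 6 h value is also given without this array. Values below are log2 of the processed signal minus log2 of the array's 75th percentile, so a negative value is a signal under that percentile, and each change is given with its standard error (SE, 4 arrays a group). Every probe of the 7 genes was well above background on all 4 arrays of each group, apart from Xrra1 in air lungs of 6 h, where 2 of 4 arrays measured it.

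At 6 h all 7 genes were among those called higher (limma, Benjamini-Hochberg adjusted p under 0.05 over all genes), a group that holds 1.36% of the genes tested. Their 4 ozone values all lay above their 4 air values, an arrangement found in 4.61% of all genes. The changes lay between 0.90 and 1.19 on the log2 scale with a median of 1.00, beside a median of 0.07 over all genes. These genes were picked by this contrast, and nothing is read from the counts.

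Gdpd2 encodes a membrane-bound glycerophosphodiester phosphodiesterase that cleaves glycerophospho compounds and was described in bone-forming cells. Its log2 signal was -2.86, -2.56, -2.02 and -2.30 in ozone lungs of 6 h, against -3.47, -3.14, -3.82 and -3.68 in air lungs of 6 h. The change was 1.09 ± 0.18, with the lowest ozone array 0.28 above the highest air array. At 24 h the ozone lungs had -3.18, -3.22, -2.97 and -3.15, against -2.47, -2.42, -2.75 and -2.37 in the air lungs. All 4 ozone lungs lay below all 4 air lungs at 24 h, an arrangement found in 4.96% of genes. The 24 h change was -0.63 ± 0.18 with an adjusted p of 0.084 in limma, so it missed the threshold. It passed in 5 of 27 alternative treatments of the data, one of them the fit without ozone replicate 3 of 6 h (adjusted p = 0.0434).

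Pla1a encodes a secreted phospholipase that acts on phosphatidylserine and releases lysophosphatidylserine. Its log2 signal was -2.62, -2.13, -2.09 and -1.94 in ozone lungs of 6 h, against -2.86, -3.32, -3.43 and -2.77 in air lungs of 6 h. The groups did not overlap, and the change was 0.90 ± 0.18. The 24 h values were -4.03, -4.21, -4.26 and -4.42 in ozone lungs, against -4.28, -4.28, -4.18 and -4.05 in air lungs. The groups overlapped at 24 h, with a change of -0.03 ± 0.18 (adjusted p = 0.984 in limma). The 95% interval of the 24 h change ran from -0.41 to 0.35, below the size seen at 6 h. Under a background correction with normexp the 24 h change of Pla1a was -0.54, not called.

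Atp6v0a4 had log2 signals of -2.84, -3.33, -3.05 and -3.18 in ozone lungs of 6 h, against -4.62, -3.73, -4.54 and -4.27 in air lungs of 6 h. Its change, 1.19 ± 0.23, was the largest of the 7, and ozone replicate 1 was its highest array. The second probe had -4.05, -3.56, -4.08 and -3.34 in ozone lungs of 6 h, against -4.74, -4.25, -4.18 and -4.75 in air lungs of 6 h. That probe's change was smaller, 0.72 ± 0.24, and did not pass among all probes. At 24 h the probe used had -4.46, -4.36, -4.45 and -4.91 in ozone lungs, against -3.81, -3.97, -4.73 and -4.16 in air lungs. The 24 h change was -0.38 ± 0.23 (adjusted p = 0.554 in limma), with overlapping groups and a 95% interval from -0.87 to 0.11. The second probe's 24 h change was -0.44 ± 0.24, on the same side. Under normexp the probe used had a 24 h change of -0.69, not called.

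Lhfpl3 encodes a membrane protein with a tetraspan fold, of a family related to the lipoma HMGIC fusion partner. Its log2 signal was -4.31, -3.46, -3.53 and -3.66 in ozone lungs of 6 h, against -4.94, -5.04, -5.04 and -4.59 in air lungs of 6 h. The change was 1.16 ± 0.23, and ozone replicate 1 was the lowest ozone array. The 24 h values were -5.01, -5.40, -5.04 and -4.97 in ozone lungs, against -5.59, -5.72, -6.08 and -5.59 in air lungs. All 4 ozone lungs again lay above all 4 air lungs, as 6.8% of genes do at 24 h. The 24 h change was 0.64 ± 0.23, with an adjusted p of 0.200 in limma and a 95% interval from 0.15 to 1.13. Under a background correction with normexp its 24 h change was -0.46, not called, where the median of all genes moved to -0.13 against 0.02. The name early-only goes against these Lhfpl3 values, apart from those under normexp.

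Tmem82 encodes a transmembrane protein whose role is not well described. Its log2 signal was -1.53, -2.69, -1.32 and -2.38 in ozone lungs of 6 h, against -2.99, -2.78, -2.91 and -2.89 in air lungs of 6 h. Ozone replicates 1 and 3 were high, while replicate 2 lay 0.09 above the highest air lung. The change was 0.91 ± 0.23, and the ozone SD of 0.66 (n = 4) was the widest of any group among the 7 genes, against 0.09 in air lungs. The values of 24 h were -2.84, -2.75, -2.70 and -2.54 in ozone lungs, against -2.87, -3.09, -2.85 and -2.53 in air lungs. The groups overlapped, with a change of 0.13 ± 0.23 (adjusted p = 0.918 in limma).

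Mslnl encodes a protein similar to mesothelin, a surface protein of the mesothelial cells that cover the lung. Its log2 signal was -3.36, -3.42, -2.50 and -3.19 in ozone lungs of 6 h, against -4.04, -3.66, -4.30 and -4.22 in air lungs of 6 h. Ozone replicate 3 was the highest array, and the change was 0.94 ± 0.26. In the 24 h experiment the values were -4.98, -5.25, -5.13 and -4.93 in ozone lungs, against -5.20, -5.13, -5.18 and -4.14 in air lungs. The groups overlapped, with a change of -0.16 ± 0.26 (adjusted p = 0.903 in limma). Over the 11 alternatives that left out no single array, the 24 h change ran from -0.59 to -0.07 and was never called.

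Xrra1 had log2 signals of -4.57, -4.82, -4.20 and -4.65 in ozone lungs of 6 h, against -5.38, -5.51, -5.67 and -5.67 in air lungs of 6 h. Its lowest ozone array lay 0.56 above its highest air array, the widest such gap of the 7 genes. The change was 1.00 ± 0.22, with 2 of the 4 air values not well above background. The 24 h arrays had -5.00, -4.77, -4.78 and -4.96 in ozone lungs, against -5.13, -4.87, -5.00 and -4.48 in air lungs. The groups overlapped, with a change of -0.01 ± 0.22 (adjusted p = 0.997 in limma). Over the 11 alternatives that left out no single array, the 24 h change ran from -0.53 to 0.08 and was never called.

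**Figure D1:**
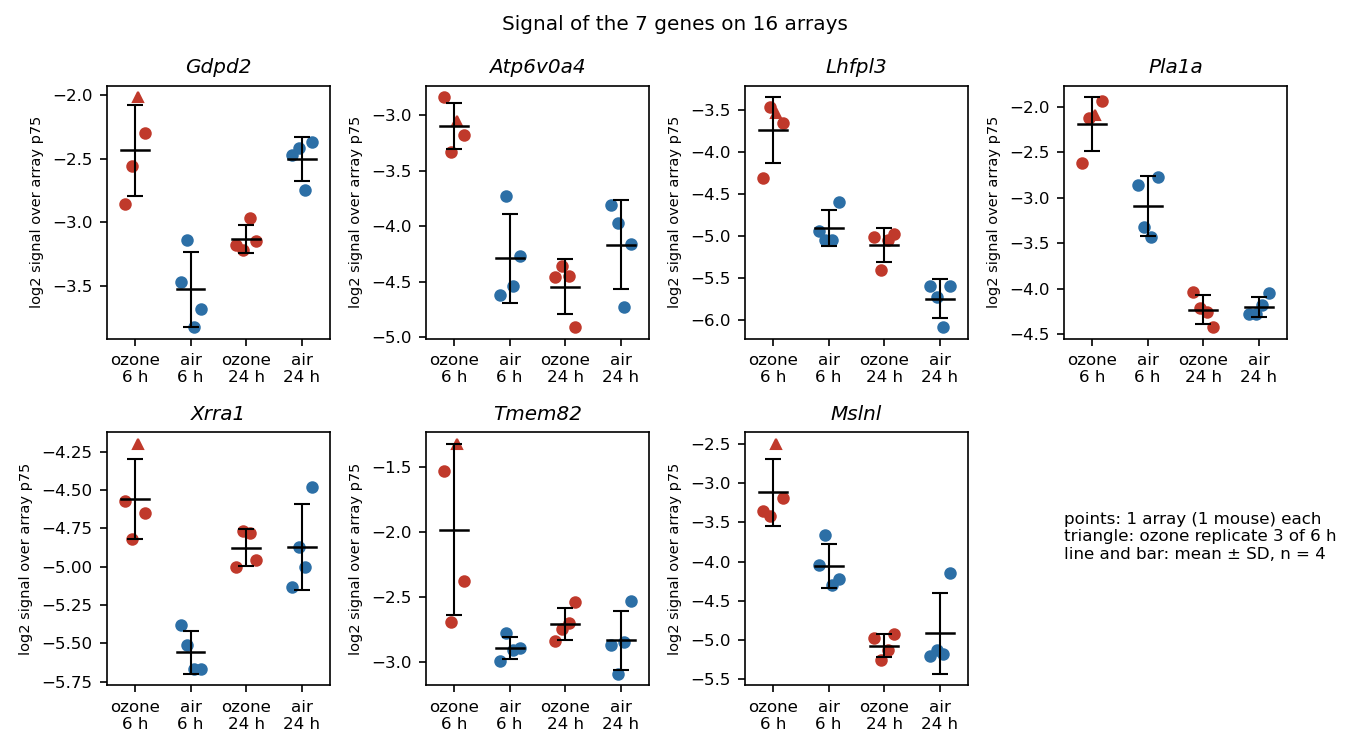
Log2 processed signal relative to the array's 75th percentile (vertical axis) of the 7 genes in ozone and air lungs at 6 h and 24 h; points are single arrays, the triangle is ozone replicate 3 of 6 h, and lines and bars are the mean and SD of 4 arrays. In all 7 panels the ozone points of 6 h lie above the air points of 6 h, while at 24 h only Gdpd2 (ozone below air) and Lhfpl3 (ozone above air) have groups that do not overlap.

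The 24 h arrays and the difference between the times were examined for the 6 h rise. Since the name early-only was given with the 24 h values known, the 24 h counts do not bear independently on whether the rise was gone. At 24 h 0 of the 7 genes passed in limma, beside 1.98% of all genes in either direction. At an unadjusted p under 0.05, 2 of the 7 differed, Gdpd2 lower and Lhfpl3 higher in ozone lungs, beside 13.3% of all genes. The median change of the 7 genes at 24 h was -0.03, beside 0.02 over all genes. The methods that differed from this count called 1 or 2 of the 7 (quantile normalization, a fit on the arrays of 24 h alone, array weights and the authors' deposited table), and Gdpd2, lower in ozone lungs, was called in each. The second gene called with array weights was Lhfpl3, higher in ozone lungs by 0.59 ± 0.18 (adjusted p = 0.0493 in limma). These fits also called more of all genes. With array weights 1007 were called higher and 731 lower, against 146 and 283 without them. The counts were 308 and 449 in the deposited table, 232 and 388 with quantile normalization, and 233 and 347 on the arrays of 24 h alone.

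The difference in ozone effect, 24 h minus 6 h, holds the 6 h values that chose the genes and is a description. It was -1.72 ± 0.25 for Gdpd2, the only one of the 7 called, beside 0.0185% of all genes called in that direction. It was -1.57 ± 0.33 for Atp6v0a4, -1.10 ± 0.37 for Mslnl, -1.01 ± 0.31 for Xrra1, -0.93 ± 0.25 for Pla1a, -0.78 ± 0.32 for Tmem82 and -0.52 ± 0.33 for Lhfpl3. The 95% interval, not adjusted for the number of genes, lay below 0 for 6 of the 7 genes. The share of all genes with such an interval was not counted, and nothing is read from this count. The interval of Lhfpl3 ran from -1.21 to 0.18. The call of Gdpd2 was lost without air replicate 4 of 6 h, ozone replicates 1 or 2 of 24 h, or air replicates 1 or 2 of 24 h, each left out in turn.

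**Figure D2:**
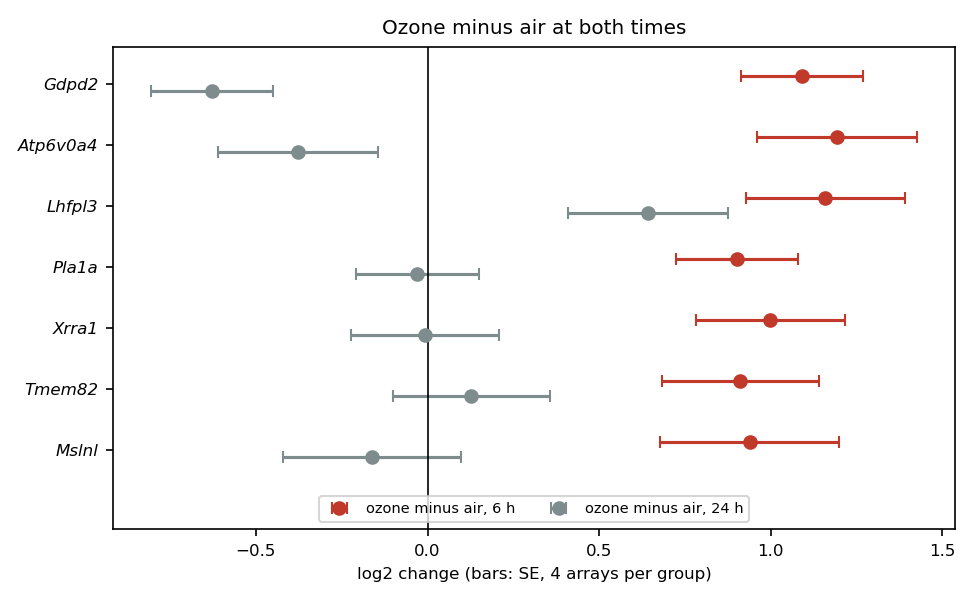
Log2 change, ozone minus air (horizontal axis), of the 7 genes at 6 h (red) and 24 h (grey), with SE bars from 4 arrays per group. The 6 h changes lie between 0.90 and 1.19, and at 24 h Gdpd2 lies at -0.63 and Lhfpl3 at 0.64 with the other genes between them.

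Without ozone replicate 3 of 6 h, 5 of the 7 genes were still called higher at 6 h, beside 0.536% of all genes in that fit and 1.36% with the array. The change was then 0.95 for Gdpd2, 1.18 for Atp6v0a4, 1.09 for Lhfpl3, 0.87 for Pla1a and 0.88 for Xrra1. Tmem82 (0.69) and Mslnl (0.73) lost their calls. Replicate 3 was the highest ozone array for Gdpd2, Xrra1, Tmem82 and Mslnl, by 0.56, 0.48, 0.88 and 0.83 above the mean of the other ozone arrays. For Atp6v0a4, Pla1a and Lhfpl3 it lay 0.06, 0.14 and 0.28 above that mean.

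**Figure D3:**
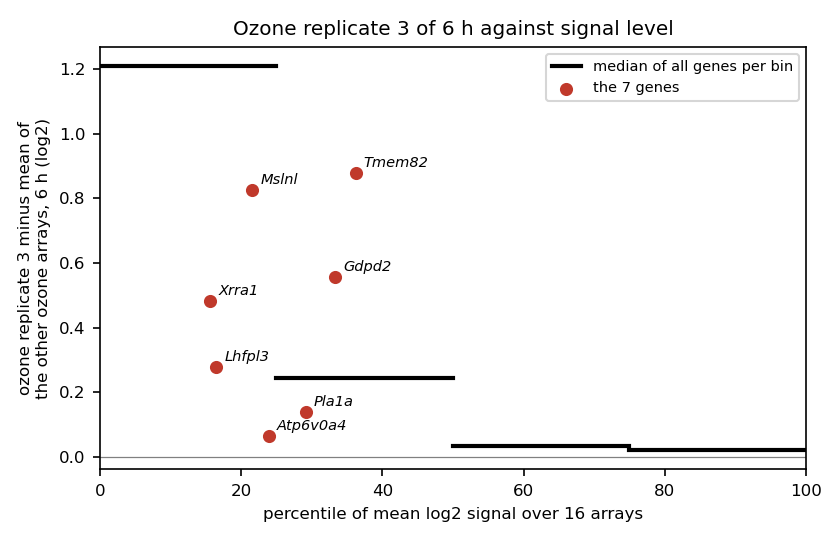
Log2 signal of ozone replicate 3 minus the mean of the other 3 ozone arrays of 6 h (vertical axis) against the percentile of a gene's mean signal (horizontal axis); black lines are medians of all genes in each of 4 bins and red points are the 7 genes. All 7 points lie in the lower 2 bins, where the medians are 1.21 and 0.24; the 4 genes of the lowest bin lie under its median.

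Other single arrays also moved calls at 6 h. Gdpd2, Atp6v0a4, Lhfpl3 and Pla1a were called in all 16 fits that left out 1 array, and Xrra1 in 15, the exception being air replicate 4 of 6 h. Tmem82 was called in 11, with the call lost without ozone replicates 1 or 3 or air replicates 1, 3 or 4 of 6 h. Mslnl was called in 2 of the 16, without air replicate 2 of 6 h and without air replicate 4 of 24 h. The 4 genes called in all 16 fits changed by 0.79 to 1.38 over those fits.

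Each slide carried ozone and air arrays of 1 time, replicates 1 and 2 on one slide and 3 and 4 on the other. At 6 h the ozone minus air value was positive on both slides for each of the 7 genes. That sign was bound to hold, because all 4 ozone values lay above all 4 air values. For Gdpd2 it was 0.59 on the slide of replicates 1 and 2 and 1.59 on that of replicates 3 and 4, and for Mslnl 0.46 and 1.41. For Atp6v0a4 (1.10 and 1.29), Lhfpl3 (1.10 and 1.22), Pla1a (0.72 and 1.08), Xrra1 (0.75 and 1.25) and Tmem82 (0.77 and 1.05) the slides lay closer. At 24 h Gdpd2 had -0.76 and -0.50, and Lhfpl3 0.45 and 0.83. With slide as a block, 6 of the 7 genes were called at 6 h, beside 1.19% of all genes called higher, and Mslnl was not. With Xist as a covariate 5 of the 7 were called at 6 h, beside 0.689% of all genes, and Tmem82 (0.83) and Mslnl (0.90) were not. Gdpd2, which lies on the X chromosome, had 1.08 at 6 h and -0.66 at 24 h with that covariate.

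The size of the 6 h changes and their calls differed between treatments of the data. Under normexp the changes lay between 0.49 (Xrra1) and 0.73 (Tmem82). With it 0 of the 7 passed in limma, beside 0.702% of all genes called higher, with 4 of 7 at an unadjusted p under 0.05. The authors' deposited table, normalized apart for each time, was fitted on the 8 arrays of 6 h alone, so its fit differed in both the values and the arrays. In the authors' deposited table the changes lay between 0.52 (Xrra1) and 0.95 (Gdpd2). There 0 of the 7 passed, beside 0.139% of all genes called higher, with 6 of 7 at an unadjusted p under 0.05. A fit of the processed signal on the same 8 arrays also called 0 of the 7, beside 0.0878% of all genes called higher, with 7 of 7 at an unadjusted p under 0.05 and the same sizes of change as with 16 arrays. At that unadjusted threshold 10.2% of all genes were higher at 6 h in the fit of 16 arrays. This share was not counted in the other fits. The 6 h contrast chose the genes, so the unadjusted counts are a description. All values of the 7 genes kept their positive sign in the fits of this paragraph.

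**Figure D4:**
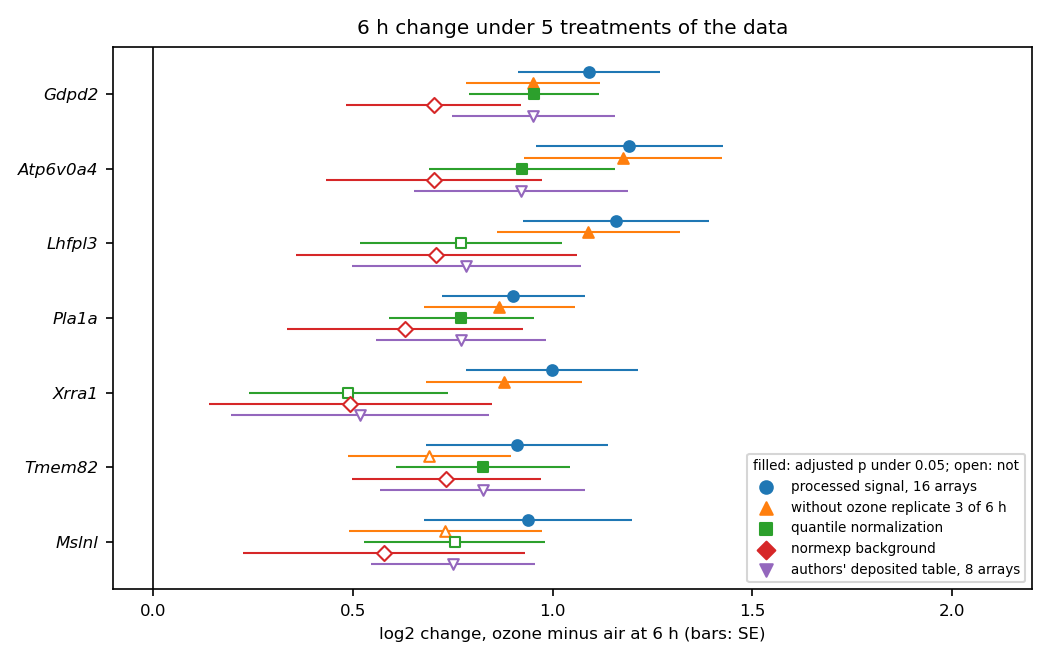
Log2 change, ozone minus air at 6 h (horizontal axis), of the 7 genes under 5 treatments of the data, with SE bars; filled symbols have a limma adjusted p under 0.05. All 35 values are above 0, and the normexp values, from 0.49 to 0.73, are the lowest for 5 of the 7 genes.

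The air lungs of the 2 experiments differed for several of the genes, and age and the separate runs cannot be told apart in that difference. Air lungs of 24 h minus air lungs of 6 h gave 1.02 for Gdpd2 and 0.69 for Xrra1, with all 4 air lungs of 24 h above those of 6 h, as for 22.5% of all genes. The same difference was -1.10 for Pla1a and -0.84 for Lhfpl3, with all 4 below, as for 26.4% of all genes. It was -0.86 for Mslnl with overlapping groups, and 0.12 for Atp6v0a4 and 0.06 for Tmem82.

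The order of the group means holds the 6 h values that chose the genes and is a description. Ozone lungs of 6 h had the highest mean for all 7 genes. For Gdpd2 that mean, -2.44 ± 0.36 (SD, n = 4), overlapped with -2.50 ± 0.17 in air lungs of 24 h, while ozone lungs of 24 h had -3.13 ± 0.11 and air lungs of 6 h -3.53 ± 0.30. For Xrra1 both 24 h groups (-4.88 ± 0.12 in ozone and -4.87 ± 0.28 in air lungs) overlapped with ozone lungs of 6 h, and air lungs of 6 h stood below all of them. For Lhfpl3 the ozone lungs of 24 h (-5.10 ± 0.20) overlapped with the air lungs of 6 h (-4.90 ± 0.22), and the air lungs of 24 h were lowest (-5.75 ± 0.23). For Pla1a both 24 h groups lay below both 6 h groups, and for Atp6v0a4 the 3 groups under the ozone lungs of 6 h overlapped with each other. For Mslnl the lowest means were those of 24 h, -5.07 ± 0.14 in ozone and -4.91 ± 0.52 in air lungs. For Tmem82 the 3 lower groups overlapped with each other, and both 24 h groups overlapped with ozone lungs of 6 h.

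Within groups the 7 genes varied together only loosely. Across 16 arrays, after the group means were subtracted, 16 of the 21 gene pairs had a correlation above 0, with a median of 0.22. The highest was that of Xrra1 and Mslnl (0.78) and the lowest was -0.29. These points share arrays and array-wide sensitivity.

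Genes with the most similar profiles over the 16 arrays were searched among the 16188 genes with current names that are no clone or predicted models. Most like the mean of the 7 standardized profiles were Col25a1 (Pearson r = 0.92), Cnppd1 (r = 0.92), Gnmt (r = 0.90), Spata48 (r = 0.89) and Mettl27 (r = 0.89). Group means were kept in these profiles, which hold the 6 h ozone values that chose the 7 genes. A rise at 6 h in a gene found this way was built into the search, so its changes are a description. Col25a1, a collagen with a transmembrane segment, changed by 1.04 ± 0.12 at 6 h and by -0.19 ± 0.12 at 24 h. Gnmt, which methylates glycine with S-adenosylmethionine, changed by 0.43 ± 0.11 at 6 h and by 0.13 ± 0.11 at 24 h. For single members the nearest genes were Sel1l3 for Gdpd2 (r = 0.88), Clca3a1 for Pla1a (r = 0.97), Atp1b1 for Atp6v0a4 (r = 0.92), C1qtnf4 for Lhfpl3 (r = 0.91), Serac1 for Tmem82 (r = 0.90), Crebbp for Mslnl (r = 0.94) and Ccdc87 for Xrra1 (r = 0.90). Atp1b1, a subunit of the sodium pump, changed by 0.59 ± 0.11 at 6 h and by -0.07 ± 0.11 at 24 h. Ccdc87 was well above background on 7 of the 16 arrays, and the other genes named here on all 16.

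Relatives of Atp6v0a4, Gdpd2, Lhfpl3 and Pla1a were listed, and those tested did not pass at either time. Beside the counts of unadjusted p under 0.05 given for these and the next lists, the share of all genes was 21.0% at 6 h and 13.3% at 24 h. Of 24 other V-ATPase subunits 0 passed in limma at 6 h or 24 h, and their median changes were 0.00 and 0.03. At an unadjusted p under 0.05, 1 was higher and 3 were lower at 6 h, and 1 was lower at 24 h. Of 5 other glycerophosphodiester phosphodiesterases 0 passed at either time, with 2 at an unadjusted p under 0.05 at each time, and Gdpd5, a relative of Gdpd2, had 0.29 ± 0.09 at 6 h. Of 4 other LHFPL genes 0 passed, with 1 (Lhfpl4, 0.24 ± 0.09) at an unadjusted p under 0.05 at 6 h and 0 at 24 h. Of 9 genes of Pla1a's lipase family and of lysophosphatidylserine receptors 0 passed, with 3 at 6 h and 2 at 24 h at an unadjusted p under 0.05. Those of 6 h were the lipases Lipg (0.62 ± 0.19) and Liph (0.32 ± 0.10), both higher, and Gpr34 (-0.41 ± 0.14), lower. Gpr34 is a lysophosphatidylserine receptor. Those of 24 h were Gpr34 (0.46 ± 0.14) and Pnliprp1 (0.32 ± 0.10), both higher. Lipg then had -0.08 ± 0.19 and Liph 0.06 ± 0.10. Gdpd4, Lhfpl1, Lipi, Pnlip, Pnliprp2 and Gpr174 were too dim to be tested.

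Markers of cells that could carry these genes were set beside them. Of 12 genes of mesothelin's family and of mesothelial cells 0 passed at 6 h or 24 h, with 2 and 1 at an unadjusted p under 0.05. Their mean log2 signal per array ran from 0.79 to 1.38 in ozone lungs and from 0.41 to 1.38 in air lungs at 6 h. Msln itself changed by 0.35 ± 0.14 at 6 h. Of 12 ionocyte genes, the airway cell type rich in proton pumps, 1 passed at 6 h (Tfcp2l1, a transcription factor, 0.36 ± 0.10), beside 1.36% of all genes called higher, and 0 at 24 h, with 2 at an unadjusted p under 0.05 at each time. The ionocyte mean was -2.16 in ozone replicate 3 of 6 h, -3.08 to -2.89 in the other ozone lungs and -3.06 to -2.86 in air lungs, and Foxi1, its defining factor, was too dim to be tested.

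Of 10 genes of oesophagus and squamous epithelium 0 passed at either time, with 5 at 6 h and 2 at 24 h at an unadjusted p under 0.05, beside 21.0% and 13.3% of all genes. Their mean ran from -2.54 to -1.84 in ozone lungs of 6 h. In air lungs of 6 h it was -1.87 in replicate 1 and -3.48 to -3.09 in the others. The changes at 6 h ran from 0.08 to 2.83, with a median of 0.61. At 24 h the mean ran from -3.18 to -3.08 in ozone lungs and -3.65 to -2.75 in air lungs. Krt6a, a keratin, had the largest 6 h change of this list, 2.83 ± 0.84, not called. It was well above background on 3 of 4 ozone and 1 of 4 air arrays of 6 h. Sprr3, Dsg3, Dsc3, Krtdap and Rptn were too dim to be tested. Of 12 neutrophil genes 0 passed at either time, with 2 higher at 6 h and 3 lower at 24 h at an unadjusted p under 0.05. Their mean ran from -0.21 to -0.09 in ozone lungs of 6 h, against -0.55 to -0.24 in air lungs. The neutrophil mean at 24 h ran from -0.87 to -0.47 in ozone lungs and from -0.60 to -0.14 in air lungs. Of 8 macrophage genes 1 fell at 6 h (Mrc1, a mannose receptor, -0.39 ± 0.11), beside 3.12% of all genes. At 24 h 1 of the 8 rose (Csf1r, a growth factor receptor, 0.31 ± 0.07), beside 0.675% of all genes. At an unadjusted p under 0.05, 1 of the 8 was lower at 6 h and 5 were higher at 24 h. Of all genes, 21.0% and 13.3% had such a p in either direction. The median change of the 8 at 24 h was 0.31, beside 0.02 over all genes. The macrophage mean at 24 h ran from 0.62 to 0.89 in ozone lungs and from 0.35 to 0.53 in air lungs. Of 9 lung epithelial genes 0 passed at either time. At an unadjusted p under 0.05, 2 were higher and 1 was lower at 6 h, and 1 was higher at 24 h. Their mean, between 3.83 and 4.13 in all 16 lungs, was that of the labelled tissue. The part of these lists in the values of the 7 genes was not tested.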

How the data were processed

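The authors deposited scanner files of 16 single-colour Agilent arrays (Agilent Feature Extraction 10.7.1.1, per the file headers) with intensity values whose background was subtracted and spatial trends removed, per the file headers, without scaling between arrays. They also deposited other values (spot flags) and a table of log2 values with a median of 6.41 for the 6 h arrays and 6.73 for the 24 h arrays. How its background was handled is not given in these sources, and it served as an alternative.

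Log2 processed intensity minus each array's 75th percentile was fitted with limma 3.58.1 in R 4.3.3 (trended eBayes, 16 arrays, 1 mean per group), and p-values were two-sided. Of 32357 probes kept, the one with the highest mean was used per gene, and 157 probes with uneven spots were left out. The number of arrays limits the precision (median SE 0.13). The fit was tested on simulated data.

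The genes and lists were chosen with earlier results of these data known. Named besides the 7 genes are called members, closest paralogs or defining markers of each list, the 5 genes most like the mean profile and the most similar gene per member. Also named are the genes of Pla1a's list with an unadjusted p under 0.05, and Krt6a for the largest 6 h change of its list.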

Additional observations from a re-analysis of the deposited data

Results flagged for a closer look

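Mslnl in air lungs of 24 h had 1 array, replicate 4 at -4.14, far above the other 3, which lay between -5.20 and -5.13. Its gap took 0.936 of the group's range. Without it the 24 h change of Mslnl was 0.10, against -0.16 with it, not called either way, and the gene is called at 6 h in that fit. Lhfpl3 in ozone lungs of 24 h had 1 low array, replicate 2 at -5.40, with the other 3 between -5.04 and -4.97. Its gap took 0.836 of the range, and the limit for 4 arrays is 0.829. Across the 28 groups examined (7 genes in 4 groups), chance alone marks about 1 in 20.

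The ozone effect on Gdpd2 differed between the times by -1.72 ± 0.25 (24 h minus 6 h). The gene was higher in 4 of 4 ozone lungs than in any air lung at 6 h and lower in 4 of 4 at 24 h. The 6 h values chose the gene, so this is a description.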

How the results depend on the processing

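Of 27 alternatives (11 treatments of the data and 16 fits that left out 1 array), none turned the sign of a called value. The number of genes called higher at 6 h, 7 of 7, was 0 under normexp, in a fit on the arrays of the time point alone and in the authors' deposited table, which was also fitted by time point, and 4 under quantile normalization. It lay between 4 and 7 when 1 array was left out, with 4 without air replicate 4 of 6 h, beside 0.259% of all genes. The share of all genes called higher was 0.702% under normexp and 1.76% under quantile normalization. It was 0.0878% on the arrays of the time point alone and 0.139% in the deposited table. In limma, 4, 7 and 6 of the 7 had an unadjusted p under 0.05 in those 3 fits with 0 calls. The share of all genes at that threshold was not counted in those fits, and the 6 h contrast chose the genes. The number called at 24 h, 0 of 7, was 1 under quantile normalization, on the arrays of the time point alone and in the deposited table, 2 with array weights, and 0 to 1 when 1 array was left out. The number called lower in the difference, 1 of 7, was 3 with array weights and 0 to 2 when 1 array was left out. With array weights 110 of all genes were called lower in the difference, against 4 without them. The labels do not say that a replicate number marks a shared litter. Same-numbered deviations correlated between -0.01 and 0.19, over 0.1 in 6 of 8 pairs. Differently numbered lungs of the same slide reached 0.43 (ozone replicate 4 and air replicate 3 of 24 h) and 0.31 (ozone replicate 2 and air replicate 1 of 24 h). Since not every same-numbered pair passed, the numbers were not taken to pair the lungs. With a replicate block, 4 genes were called at 6 h, 0 at 24 h and 0 in the difference, and over all genes 74 were called higher at 6 h, against 295 without the block. Of 553 values for single genes, 484 kept their direction and their side of the threshold or remained uncalled, 59 lost a call and 10 gained one. The cause of these changes was not tested. Dim signal limits Xrra1 and Lhfpl3 most: in air lungs of 6 h Xrra1 was measured on 2 of 4 arrays.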
